A study of Nothobranchius furzeri with 9 samples.

Results

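The genes described here encode the enzymes that join proline, ornithine and glutamate in the liver of the African turquoise killifish (Nothobranchius furzeri), a fish with a very short life span. A rule of gene IDs and enzyme names found 10 genes among the 25475 in the deposited table. Of these, 3 were named by ID with their values across age already known: ENSNFUG00015009075 (proline dehydrogenase 1a, with no symbol in the table), OAT and glud1b. Their differences between ages are therefore a description: where a count of calls over all members includes them, no support is drawn from it. The other 7, chosen by enzyme name, were PYCR1, pycr3, ALDH4A1, 2 entries for aldehyde dehydrogenase 18A1 (ALDH18A1 and aldh18a1), GLS2 and gls2b.

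Livers came from wild-type fish of the GRZ strain, male by the series title, in 3 age groups with 3 libraries each: young fish were 6 weeks old, adult fish 12 weeks old and old fish 23 to 24 weeks old. The labels name no agent, transgene or deletion, and age is the one difference between groups that they give. Nothing says that the 3 libraries of an age came from separate fish, so p-values measure the spread between these samples, which may be technical. Total estimated counts ran from 19600325 to 33951438 per library.

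Proline dehydrogenase sits on the inner mitochondrial membrane, oxidises proline to pyrroline-5-carboxylate and passes the electrons to ubiquinone. ALDH4A1 then turns pyrroline-5-carboxylate into glutamate, while OAT makes pyrroline-5-carboxylate and glutamate from ornithine. In the other direction ALDH18A1 makes pyrroline-5-carboxylate from glutamate, and the reductases PYCR1 and PYCR3 turn it into proline. Glutaminase (GLS2 in mammalian liver) makes glutamate from glutamine, and glutamate dehydrogenase (GLUD1) releases its nitrogen as ammonia. In liver these steps feed amino acid carbon into the citric acid cycle and nitrogen into ammonia disposal.

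Per unit of gene length, glud1b was the most abundant of the 10 genes at every age. TPM are scaled for gene length and depth, so they can be set side by side between genes. The mean of glud1b was 316 ± 150 TPM in young, 677 ± 128 TPM in adult and 566 ± 134 TPM in old livers (SD, n = 3 per age). In adult livers OAT came next at 363 ± 66.0 TPM and then ALDH4A1 at 246 ± 25.3 TPM, and the ranges of these 3 genes did not overlap. In young livers ALDH4A1 (133 ± 78.6 TPM) stood before OAT (59.8 ± 67.9 TPM), with overlapping ranges, and in old livers OAT (169 ± 74.7 TPM) and ALDH4A1 (116 ± 57.8 TPM) also overlapped. Of the synthesis genes, ALDH18A1 averaged 27.3 ± 6.50, 17.2 ± 1.83 and 16.6 ± 3.04 TPM in young, adult and old livers, and PYCR1 13.8 ± 3.07, 7.85 ± 3.06 and 12.2 ± 1.42 TPM. Their means were below those of the 3 most abundant genes at every age, but in young replicates 1 and 3 ALDH18A1 (20.6 and 33.6 TPM) was above OAT (11.1 and 31.0 TPM). In young replicate 1 PYCR1 (11.7 TPM) was also just above OAT. Proline dehydrogenase 1a was rank 9 of 10 in young livers at 0.142 ± 0.129 TPM, rank 6 in adult livers at 12.2 ± 5.52 TPM and rank 5 in old livers at 18.9 ± 12.3 TPM. In adult livers it overlapped with its neighbours ALDH18A1 above and GLS2 below, and in old livers with GLS2 above and gls2b below.

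**Figure D1:**
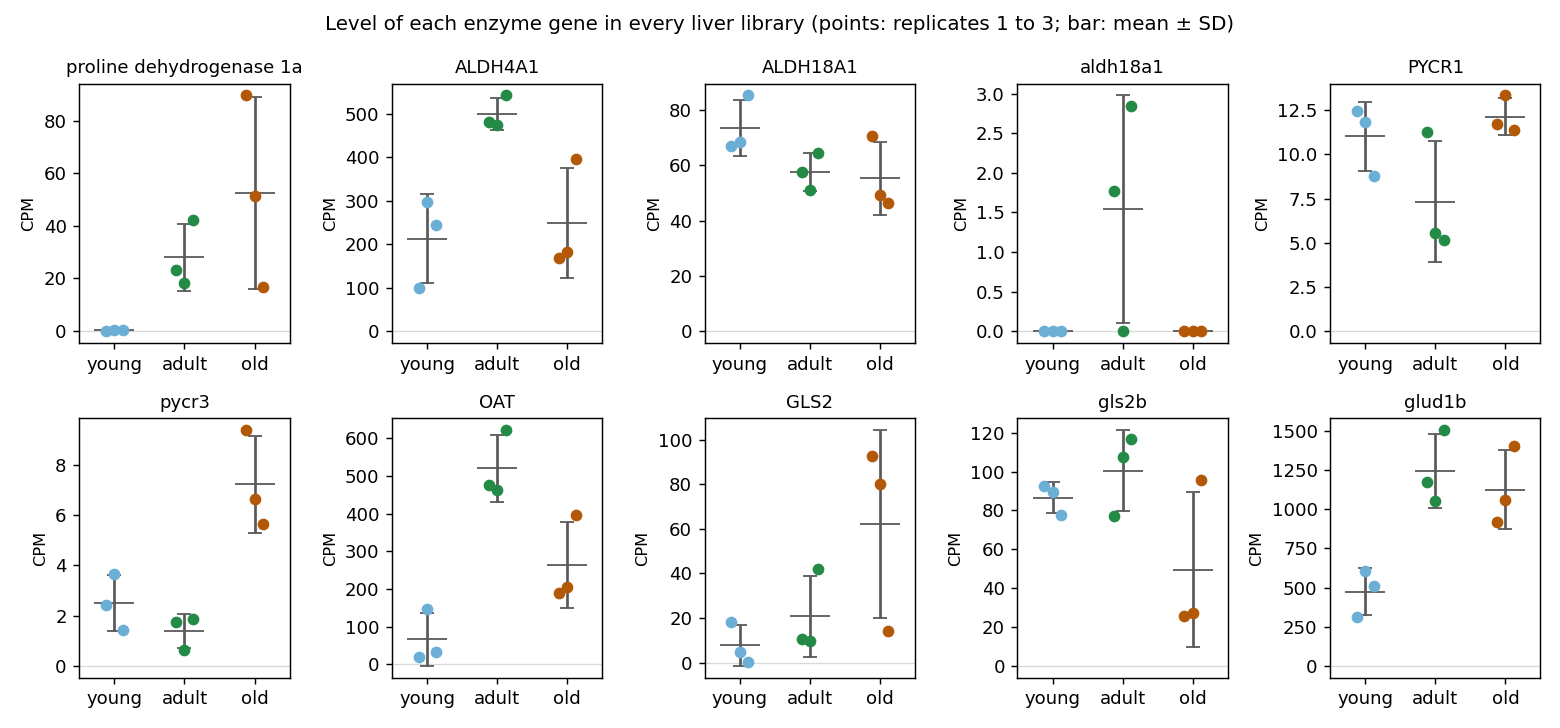
Level of each of the 10 enzyme genes in CPM (counts relative to the TMM-scaled library size) in every liver library at the 3 ages. Points are replicates 1 to 3 and bars the mean ± SD. Proline dehydrogenase 1a is under 0.4 CPM in every young library and at least 16.7 CPM in every adult and old one.

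Proline dehydrogenase 1a (ENSNFUG00015009075, chromosome 2, 51991571 to 52004766, minus strand, in the coordinates of the deposited table, whose build is not given in the sources) was close to silent in young livers and clearly present afterwards. In CPM, counts relative to the TMM-scaled library size, it had 0, 0.375 and 0.386 in the young libraries, from 0, 17 and 11 counts. The adult libraries had 23.4, 18.3 and 42.3 CPM and the old ones 89.5, 51.4 and 16.7 CPM. Neither the adult nor the old libraries overlapped with the young ones, while adult and old libraries overlapped, since old replicate 3 was the lowest of these 6. The log2 fold change was 6.64 ± 0.93 (SE) for adult over young, 7.54 ± 0.96 for old over young and 0.91 ± 0.71 for old over adult. The 2 large values rest on these few young counts, and the old over adult value was 0.27 without old replicate 1. Whether fewer cells made this RNA or each cell made less cannot be told apart in whole tissue, for this or any other gene here.

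ALDH4A1 (chromosome 10, 14285596 to 14310503), which completes proline breakdown, was highest in adult livers. Its values were 99.6, 296 and 243 CPM in young, 480, 475 and 542 CPM in adult and 168, 183 and 395 CPM in old libraries. All 3 adult libraries stood above every young and every old one, and old replicate 3 stood above old replicates 1 and 2. The log2 fold change was 1.23 ± 0.45 for adult over young (edgeR adjusted p = 0.43), -1.01 ± 0.45 for old over adult (0.22) and 0.22 ± 0.45 for old over young (0.861). None of the 3 passed the threshold of 0.05, and the last turned negative with library size scaling and without young replicate 1 or old replicate 3. Without old replicate 3 the old over adult value was -1.53. The TPM of proline dehydrogenase 1a relative to ALDH4A1 was at most 0.00128 in a young library. It lay between 0.0341 and 0.0691 in adult libraries and was 0.403, 0.227 and 0.0332 in old replicates 1, 2 and 3.

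OAT (ENSNFUG00015024148, chromosome 12, 22301079 to 22319473), which links ornithine to this pathway, also peaked in adult livers. It had 18.5, 147 and 33.7 CPM in young, 476, 462 and 621 CPM in adult and 189, 205 and 395 CPM in old libraries. In these TMM-scaled values the 3 ages did not overlap, with young lowest, old between and adult highest. In TPM young replicate 2 (137.4) was above old replicates 1 and 2 (115 and 136.9), and by unscaled library size old and young libraries also overlapped. Its log2 fold change was 2.97 ± 0.70 for adult over young, -0.98 ± 0.66 for old over adult and 1.99 ± 0.68 for old over young. The young spread came from replicate 2, and without that library the values against young were 4.32 for adult and 3.34 for old.

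Set against ALDH4A1, the level of OAT lay in overlapping ranges in old and adult livers. The ratio of their TPM was 1.53, 1.53 and 1.40 in old libraries and 1.40, 1.38 and 1.62 in adult ones. In young libraries the ratio was 0.247, 0.6995 and 0.198, below every adult and old library. OAT relative to glud1b did not overlap between old and adult livers, with 0.262, 0.248 and 0.360 in old and 0.522, 0.560 and 0.529 in adult libraries. The ratio in young replicate 2, 0.313, lay inside the old range, and young replicates 1 and 3 had 0.0745 and 0.086.

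The gene glud1b (ENSNFUG00015013581, chromosome 12, 19790314 to 19981512), a glutamate dehydrogenase, stood higher in adult and old livers than in young ones, with overlapping adult and old ranges. Its levels were 309, 602 and 507 CPM in young, 1171, 1055 and 1504 CPM in adult and 917, 1057 and 1402 CPM in old libraries. Every adult and every old library stood above the young ones. The log2 fold change was 1.40 ± 0.33 for adult over young, 1.25 ± 0.32 for old over young and -0.14 ± 0.32 for old over adult. OAT, glud1b and the minor entry aldh18a1 all lie on chromosome 12 of the table, and PYCR1 and ALDH18A1 on chromosome 3.

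**Figure D2:**
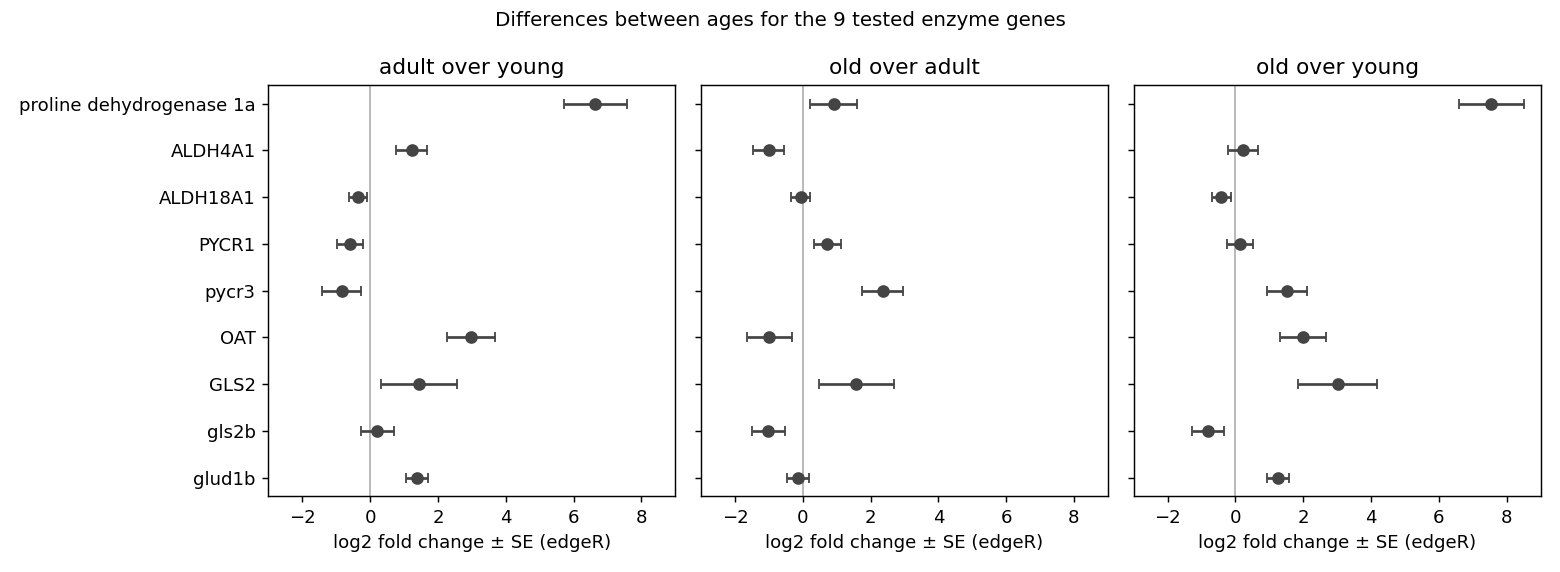
Log2 fold change ± SE from edgeR for the 9 tested enzyme genes, in adult over young, old over adult and old over young livers. Proline dehydrogenase 1a is farthest from 0 against young livers (6.64 and 7.54), and pycr3 is farthest from 0 in old over adult livers (2.36).

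Among the genes of proline synthesis, ALDH18A1 (chromosome 3, 4482623 to 4590236), the entry that held nearly all reads of this enzyme, had 67.1, 68.3 and 85.3 CPM in young, 57.5, 50.9 and 64.6 CPM in adult and 70.5, 49.2 and 46.2 CPM in old libraries. The adult libraries were all below the young ones in TMM-scaled CPM and in TPM, though not by unscaled library size. The old libraries overlapped with both in TMM-scaled CPM, while in TPM all of them were below the young ones. Its log2 fold change was -0.35 ± 0.27 for adult over young (edgeR adjusted p = 0.718) and -0.41 ± 0.27 for old over young (0.524), which were -0.23 without young replicate 3 and -0.63 without old replicate 1. The old over adult value was -0.06 ± 0.27 (edgeR adjusted p = 0.912), and its sign turned without adult replicate 3, old replicate 2 or old replicate 3.

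The entry aldh18a1 (ENSNFUG00015024294, chromosome 12, 25469995 to 25484299) was detected in 2 of 9 libraries, with 43 counts in adult replicate 1 and 71 in adult replicate 3. Summed over an age this was 1.60 CPM in adult livers and 0 counts in both other ages, where 3 counts would be 0.0508 CPM in old and 0.0326 CPM in young. The adult sum was thus at least 31.4-fold higher than in old and at least 49.0-fold higher than in young livers, a bound that covers counting error only. Both libraries with counts also had the highest summed exocrine pancreas markers, 75920 and 23230 CPM, against 6103 CPM in adult replicate 2. In the 6 young and old libraries that sum was at most 2105 CPM. The part of pancreatic RNA in this value was not tested, and this gene did not pass the filter on low counts.

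Of the reductases, pycr3 (chromosome 17, 2950502 to 2957432) was highest in old livers. It had 2.40, 3.67 and 1.44 CPM in young, 1.73, 0.629 and 1.85 CPM in adult and 9.37, 6.65 and 5.66 CPM in old libraries. All old libraries stood above all others, and young and adult libraries overlapped, though by unscaled library size all adult ones were below the young ones. The log2 fold change was 2.36 ± 0.60 for old over adult (edgeR adjusted p = 0.103), 1.53 ± 0.58 for old over young (0.25) and -0.83 ± 0.58 for adult over young (0.676). The adult over young value was -0.44 without young replicate 2 and -0.48 without adult replicate 2. The old over adult value was past the threshold in DESeq2 (adjusted p = 0.00243), with only these 2 ages in the fit (0.0303) and without young replicate 1 (0.0383). The adjusted p of pycr3 lay between 0.00243 and 0.327 over the alternatives, and the log2 fold change between 2.00 and 2.58.

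PYCR1 (chromosome 3, 54820737 to 54828634), the mitochondrial reductase, had 12.4, 11.8 and 8.80 CPM in young, 11.3, 5.57 and 5.17 CPM in adult and 11.7, 13.3 and 11.4 CPM in old libraries. Old libraries stood just above the adult ones, though not in TPM, and overlapped with the young ones. Adult and young libraries overlapped in these CPM, while in TPM and by unscaled library size all adult ones were below the young ones. Its log2 fold change was 0.73 ± 0.39 for old over adult (edgeR adjusted p = 0.289), -0.59 ± 0.39 for adult over young (0.66) and 0.14 ± 0.39 for old over young (0.905). The last value turned negative with library size scaling and without young replicate 3, and without adult replicate 1 the values were 1.15 for old over adult and -1.02 for adult over young. Relative to PYCR1, the TPM of pycr3 was 0.121, 0.214 and 0.115 in young, 0.110, 0.0798 and 0.255 in adult and 0.509, 0.329 and 0.331 in old libraries, with every old value on top. This ratio leaves out OLA.16066, another entry described as pyrroline-5-carboxylate reductase 1, which is given below. With 3 libraries against 3, an exact permutation test cannot go below p = 0.1, so no test of the ratios was made.

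Of the 2 glutaminase entries, GLS2 stood above gls2b in 2 of 3 old livers and below it in all others. The table names them GLS2 (chromosome 15, 31029563 to 31042604) and gls2b (chromosome 10, 34266559 to 34280027) but gives both a description that does not match these names. GLS2 had 18.1, 4.79 and 0.351 CPM in young, 10.6, 9.89 and 41.8 CPM in adult and 92.5, 79.9 and 14.2 CPM in old libraries. Old replicates 1 and 2 were the highest of all, while old replicate 3 lay inside the young and adult ranges. The log2 fold change was 3.02 ± 1.18 for old over young (edgeR adjusted p = 0.264), 1.58 ± 1.11 for old over adult (0.416) and 1.43 ± 1.11 for adult over young (0.718). Single libraries moved these values: without young replicate 1 they were 4.56 for old over young and 2.99 for adult over young, and without adult replicate 3 they were 2.58 for old over adult and 0.43 for adult over young. DESeq2 gave an adjusted p of 0.0474 for old over young, the lowest of a range that reached 0.507 over the alternatives.

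By contrast, gls2b was lowest in those same old replicates 1 and 2. It had 92.8, 89.2 and 77.9 CPM in young, 77.0, 108 and 117 CPM in adult and 25.5, 27.5 and 95.8 CPM in old libraries. The log2 fold change was -1.02 ± 0.48 for old over adult (edgeR adjusted p = 0.242), -0.80 ± 0.48 for old over young (0.48) and 0.21 ± 0.48 for adult over young (0.931), which turned negative with library size scaling. Without old replicate 3, gls2b passed the threshold against adult (-1.95, edgeR adjusted p = 0.0341) and young livers (-1.72, edgeR adjusted p = 0.0379), while the value against young was -0.49 without old replicate 1. Across alternatives, adjusted p-values of gls2b lay between 0.0341 and 0.479 against adult and between 0.0379 and 0.748 against young. Of the summed TPM of both entries, GLS2 made up 16.8, 5.74 and 0.409% in young, 12.7, 8.38 and 27.7% in adult and 80.6, 76.5 and 14.3% in old libraries.

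**Figure D3:**
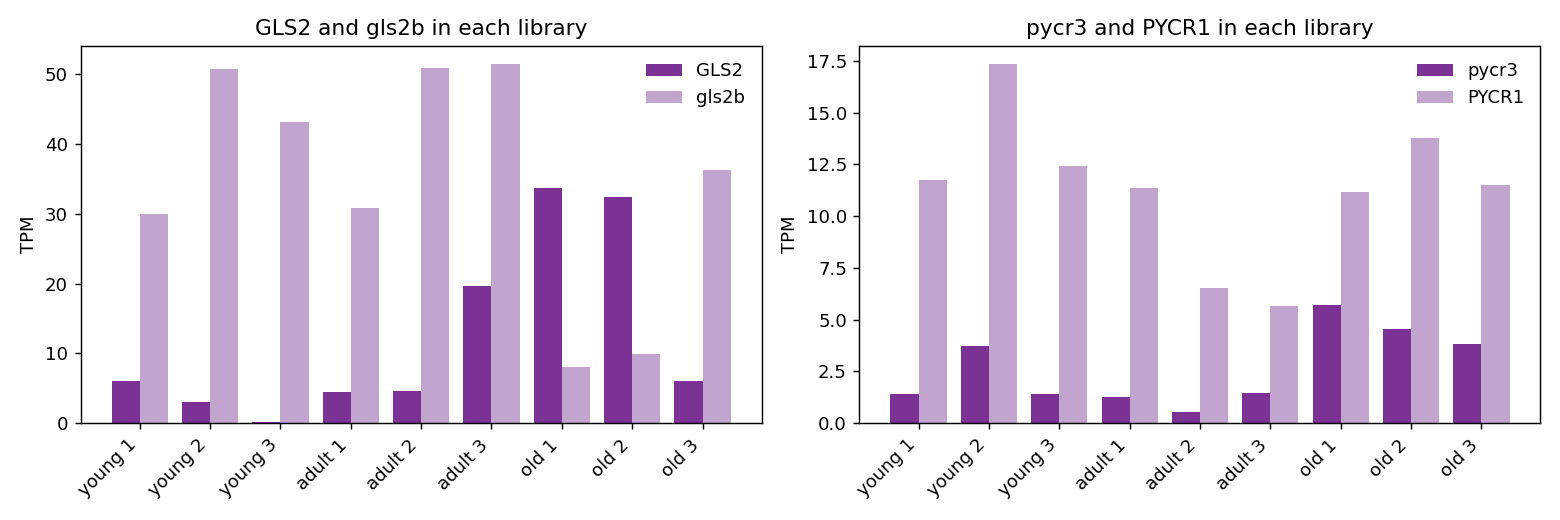
TPM of GLS2 and gls2b (left) and of pycr3 and PYCR1 (right) in each of the 9 liver libraries. GLS2 exceeds gls2b only in old replicates 1 and 2 (33.7 against 8.10 TPM and 32.4 against 9.96 TPM), and pycr3 is below PYCR1 in every library.

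Counted over the 9 genes that passed the filter on low counts, 1 was past the edgeR threshold in old against young livers, which was proline dehydrogenase 1a, where 0.558% of all 13971 genes tested were called, 0.344% as higher and 0.215% as lower. This gene, like OAT and glud1b, was chosen with such values in view, so nothing is read from the counts and medians of the 9 genes that include them. It passed the filter on its adult and old libraries, as only 2 of 3 young ones reached 0.442 CPM of the unscaled library size, the level the filter asks for in 3 libraries. Its call ended without young replicate 3 or old replicate 2, in limma-voom and with the 2 ages alone in edgeR. Limma-voom called 0 of the 9 genes, where it called 0.594% of all genes, and 5 had an unadjusted p under 0.05 in edgeR, as did 15.1% of all genes. The median log2 fold change of the 9 genes was 1.25 in old over young livers, against -0.09 over all genes.

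For adult against young livers edgeR called 0 of the 9 genes, where 0.0143% of all genes were called, and 4 had an unadjusted p under 0.05, as did 9.76% of all genes, among them the 3 chosen by ID. DESeq2 called these 3, where it called 2.76% of all genes, and limma-voom 0, where it called 0.0644%. The adult libraries lay wholly above the young ones in 4 genes (proline dehydrogenase 1a, ALDH4A1, OAT and glud1b), as did 12.0% of all genes, and wholly below them in 1 (ALDH18A1), as did 9.68%; 21.7% of all genes did not overlap in either direction. The median log2 fold change was 1.23, against -0.07 over all genes.

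In old against adult livers edgeR also called 0 of the 9, where it called 0.00716% of all genes, and 2 had an unadjusted p under 0.05 (ALDH4A1 and pycr3), as did 22.6% of all genes. DESeq2 called 1, pycr3, where it called 13.0% of all genes, and limma-voom 0, where it called 0.00716%. Old libraries lay wholly above adult ones in 2 genes (PYCR1 and pycr3), as did 19.1% of all genes, and wholly below them in 2 (ALDH4A1 and OAT), as did 21.6%; in either direction 40.7% of all genes did not overlap. The members' shares in this comparison are close to those of all genes, and nothing is read from them, since they include the genes chosen by ID. Against young livers, DESeq2 called 4 of the 9 in old ones (proline dehydrogenase 1a, OAT, glud1b and GLS2), where it called 7.56% of all genes. Old libraries lay wholly above young ones in 4 genes, as did 7.69% of all genes. They lay wholly below them in 0, as did 7.9%, and 15.6% of all genes did not overlap in either direction. By unscaled library size or in TPM 3 genes, without OAT, lay wholly above. The share of all genes was not counted on those scales. Adult against young and old against young share the young libraries, and each comparison shares libraries with both others.

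**Figure D4:**
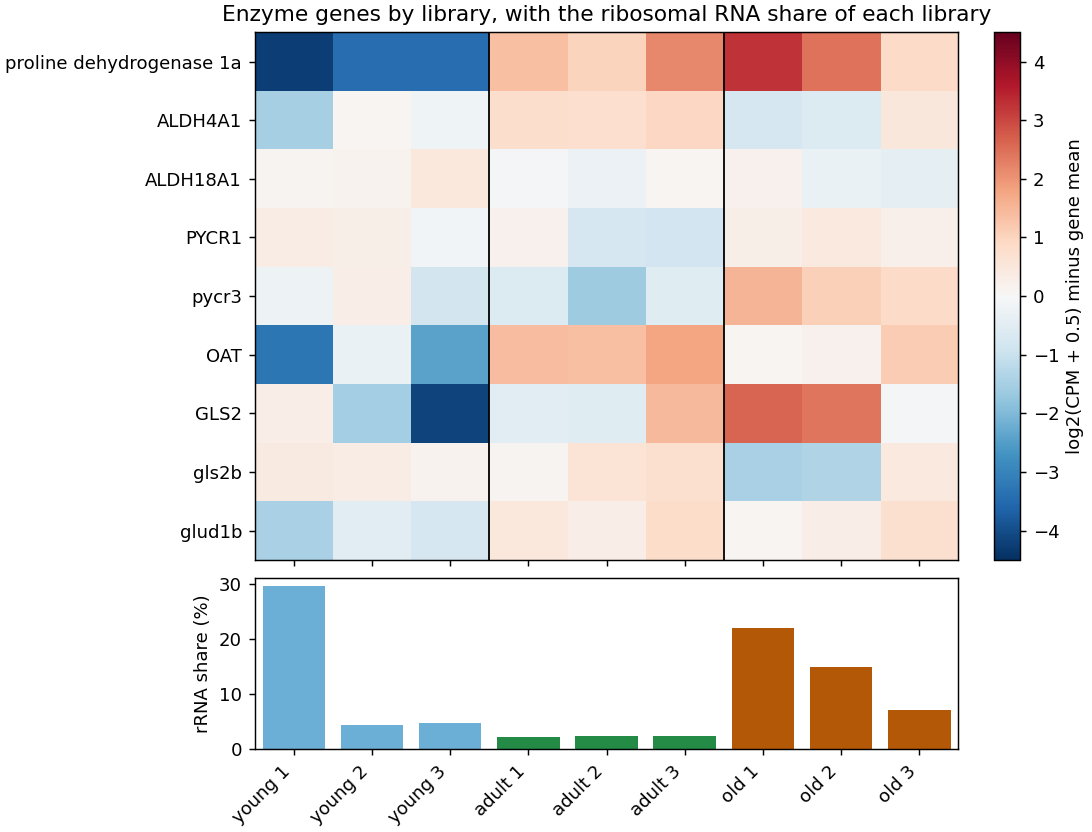
The 9 tested enzyme genes in each library, as log2(CPM + 0.5) minus the mean of the gene over all libraries (colour), above the share of counts from ribosomal RNA genes in percent (bars). Ribosomal RNA of mitochondrial type is included in that share. Old replicates 1 and 2, with 21.98 and 15.0% ribosomal RNA, have low gls2b and ALDH4A1 and high GLS2 and proline dehydrogenase 1a next to old replicate 3 (7.07%).

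Several of these genes split the old libraries in the same way as other features of the samples. Ribosomal RNA genes took 29.6, 4.52 and 4.74% of the counts in young replicates 1, 2 and 3, from 2.22 to 2.51% in adult libraries, and 21.98, 15.0 and 7.07% in old replicates 1, 2 and 3. This share includes ribosomal RNA of mitochondrial type, which was not counted apart. All genes of the mitochondrial genome took similar shares: 34.8, 5.29 and 5.94% in young, 2.88 to 3.42% in adult and 22.3, 16.1 and 7.93% in old libraries. The summed level of 25 hepatocyte markers ran from 218700 to 256800 CPM in young and from 322000 to 361400 CPM in adult libraries, and was 177700, 211000 and 342200 CPM in old replicates 1, 2 and 3. No hepatocyte marker was at 0 throughout, and the most abundant were apoa1b, hpxa and apoa2. These did not move alike. In old replicates 1, 2 and 3 hpxa had 12060, 14250 and 53880 CPM, against 73310 to 88930 CPM in adult libraries. For apoa2 the old values were 41180, 42580 and 55100 CPM, overlapping with 34130 to 44830 CPM in adult ones, and apoa1b also overlapped. The highest apoa2, 79880 CPM, was in young replicate 1, where the sum was lowest of the young libraries. OAT, ALDH4A1 and gls2b were lowest of the old libraries where the hepatocyte sum was lowest, and GLS2 and proline dehydrogenase 1a were highest there. Among the young libraries, replicate 1, with the most ribosomal RNA, also had the lowest OAT and ALDH4A1 and the highest GLS2. Going the other way, it had the highest gls2b of the young libraries (92.8 CPM) and 0 counts of proline dehydrogenase 1a. The part of ribosomal RNA or of hepatocyte share in these values was not tested. Without the libraries over 20% ribosomal RNA (young replicate 1 and old replicate 1), the log2 fold changes in old over young livers were 6.47 for proline dehydrogenase 1a, 1.74 for OAT, 1.15 for glud1b and 4.17 for GLS2. In old over adult livers they were then -0.79 for ALDH4A1, -0.70 for gls2b and 2.13 for pycr3.

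Other cell types were also compared by summed markers. Exocrine pancreas markers (15 genes, led by prss1 and CELA1, with 1 at 0 throughout) summed to between 398 and 2105 CPM in young, between 6103 and 75920 CPM in adult and between 505.5 and 1013 CPM in old libraries. Islet markers (13, led by INS, with 1 at 0 throughout) differed widely between libraries of an age. They summed to 0, 2.74 and 1.16 CPM in young, 763, 3.87 and 538 CPM in adult and 28.6, 0 and 158 CPM in old libraries. Macrophage markers (15, led by cd68) ran from 209 to 272 CPM in young, 414 to 673 CPM in adult and 334 to 686 CPM in old libraries. Fibroblast and stellate markers (20, led by FN1B) ran from 1522 to 3414, 3259 to 3941 and 2755 to 3947 CPM in young, adult and old libraries. FN1B made up most of this sum in every library, with 2642 of 2755 CPM in old replicate 1. The next markers, col1a1b and COL1A2, went another way, with every old library below all others. The old libraries had 16.5, 13.1 and 20.1 CPM of col1a1b and 5.89, 19.2 and 17.2 CPM of COL1A2. Erythrocyte markers (6, led by slc4a1a) ran from 117 to 197 CPM in young, 120 to 167 CPM in adult and 36.7 to 84.4 CPM in old libraries, with all old ones lowest. Over all 9 libraries, endothelial markers (17) ran from 97.4 to 188 CPM, biliary markers (13) from 750 to 1053 CPM and enterocyte markers (13, with 1 at 0 throughout) from 22.1 to 68.8 CPM. The part of any of these cells in the enzyme genes was not tested.

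The table holds further entries described as the same enzymes but named otherwise. These were singled out after their values were seen. The entry zgc:92040, described as proline dehydrogenase 2, which in mammals oxidises hydroxyproline, averaged 32.8 ± 11.9, 35.9 ± 4.27 and 34.9 ± 20.4 CPM in young, adult and old livers. Its log2 fold change in old over young livers was 0.09 ± 0.43 (edgeR adjusted p = 0.951). In TPM the means of zgc:92040 were 30.6, 27.2 and 24.0, above those of proline dehydrogenase 1a at every age (0.142, 12.2 and 18.9). In old replicates 1 and 2, though, zgc:92040 was below proline dehydrogenase 1a (14.7 and 16.6 against 30.4 and 20.3 TPM). Proline dehydrogenase 1b (ENSNFUG00015021596) had 0 counts in all 9 libraries, which allows up to 0.168 CPM in the shallowest. Another reductase entry, OLA.16066, described as pyrroline-5-carboxylate reductase 1, averaged 28.5 ± 17.3, 24.2 ± 8.16 and 13.8 ± 8.91 CPM (old over young -1.05 ± 0.58, edgeR adjusted p = 0.429). In TPM its means were 23.35 ± 17.19, 15.98 ± 5.84 and 8.07 ± 4.86 in young, adult and old livers. By the mean it was thus above PYCR1 in young and adult livers and below it in old ones (13.83, 7.845 and 12.16 TPM). Near-identical copies can share reads, so values of paired entries such as ALDH18A1 and aldh18a1 or PYCR1 and OLA.16066 are uncertain to that extent, although all 90 estimated counts of the 10 genes were whole numbers as deposited.

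The neighbouring reactions were followed in 10 lists of other genes, with 140 tested in all. In edgeR 1 of them was higher in old than in young livers and 0 lower, and 0 changed in the other comparisons. Over all genes edgeR called 0.558% in old against young, 0.00716% in old against adult and 0.0143% in adult against young livers. An unadjusted p under 0.05 was found for 36 of the 140 in old against young (15.1% of all genes), for 28 in old against adult (22.6% of all genes) and for 21 in adult against young livers (9.76% of all genes). DESeq2 called 19, 18 and 6 of the 140 in these comparisons, where it called 7.56, 13.0 and 2.76% of all genes. Limma-voom called 5, 0 and 0 of the 140, where it called 0.594, 0.00716 and 0.0644% of all genes. The counts by list below are from edgeR unless DESeq2 is named. They are to be set beside the shares of all genes given here for the same tool and comparison.

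The gene that rose was agxta, an aminotransferase that removes glyoxylate, a product of hydroxyproline breakdown. It had 1414, 1530 and 1341 CPM in young, 2489, 2078 and 2729 CPM in adult and 4277, 4427 and 4109 CPM in old libraries. The 3 ages did not overlap, and the log2 fold change in old over young livers was 1.58 ± 0.24 (edgeR adjusted p = 0.0214). The 15 genes of its list, proline and hydroxyproline turnover, had a median of 0.48 in old over young, -0.11 in old over adult and 0.42 in adult over young livers, and DESeq2 called 2, 3 and 3.

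In the list of ornithine, arginine and urea cycle genes 0 of 14 passed edgeR in any comparison, and the medians were 0.12 in old over young, -0.23 in old over adult and 0.35 in adult over young livers. DESeq2 called 2 of the 14 in old against young and 4 in old against adult livers, named here after their values were seen. One was nags, whose enzyme makes the activator of the urea cycle: it had 64, 52 and 12 counts in young, 22, 24 and 32 counts in adult and 0 counts in all 3 old libraries (edgeR adjusted p = 0.0707 against young and 0.0945 against adult). A count of 0 allows up to 0.168, 0.152 and 0.139 CPM in old replicates 1, 2 and 3, and the lowest adult and young values were 0.908 and 0.421 CPM. The mitochondrial arginase arg2, which makes ornithine, had 4.72, 4.57 and 3.20 CPM in old, against 0, 0.199 and 0 CPM in young libraries (edgeR adjusted p = 0.131). Its adult libraries were far apart, with 0.495, 0.045 and 2.41 CPM from 12, 1 and 60 counts. The filter on low counts kept nags through its young and adult libraries only and arg2 through its adult and old ones only. No support is therefore drawn from the calls of these genes. Against adult livers DESeq2 also called ASS1, of the urea cycle, lower and AZIN1A, an inhibitor of the antizymes, and SLC7A1, a cationic amino acid carrier, higher in old ones (edgeR log2 fold changes -1.38, 1.47 and 1.68). The most abundant genes of the list were SLC7A2, a carrier of arginine and ornithine, and GAMT and gatm, the enzymes of creatine synthesis. SLC7A2 had 56.5, 157 and 156 CPM in young, 211, 185 and 293 CPM in adult and 117, 126 and 219 CPM in old libraries, with all adult ones above the young. GAMT had 225, 66.3 and 50.1 CPM in young, 76.0, 70.0 and 71.2 CPM in adult and 107, 137 and 111 CPM in old libraries. For gatm, which takes arginine and gives off ornithine, the values were 7.10, 36.0 and 50.4 CPM in young, 72.3, 146 and 91.4 CPM in adult and 0, 0.558 and 13.7 CPM in old libraries. All old libraries of gatm were below all adult ones (log2 fold change -4.43 ± 1.47, edgeR adjusted p = 0.137). Of 12 polyamine genes 0 passed edgeR, with medians of -0.36 in old over young, -0.33 in old over adult and -0.10 in adult over young livers, and DESeq2 called 2, 2 and 0. The most abundant, SAT1, oaz1a and oaz1b, averaged 234, 145 and 116 CPM in young, 252, 135 and 164 CPM in adult and 282, 144 and 105 CPM in old livers.

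Among 15 other glutamate and glutamine genes 0 passed edgeR, with medians of -0.12 in old over young, -0.26 in old over adult and 0.39 in adult over young livers, and DESeq2 called 1, 1 and 0. The cytosolic aspartate aminotransferase got1 had 177, 153 and 29.7 CPM in young, 324, 246 and 401 CPM in adult and 756, 792 and 802 CPM in old libraries. Its 3 ages did not overlap, and the log2 fold change in old over young livers was 2.71 ± 0.56 (edgeR adjusted p = 0.0702). The mitochondrial form GOT2 had 109, 261 and 255 CPM in young, 355, 360 and 367 CPM in adult and 143, 122.8 and 299 CPM in old libraries, with every adult library above all others. Its log2 fold change in old over adult livers was -0.94 ± 0.42 (edgeR adjusted p = 0.222). The alanine aminotransferase GPT averaged 103 ± 19.3 CPM in young livers, 159 ± 9.18 CPM in adult ones and 133 ± 29.1 CPM in old ones.

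The list of aminotransferases and amino acid deaminating enzymes had 0 of 11 past edgeR, with medians of 0.67, 0.16 and 0.20 in old over young, old over adult and adult over young livers, and DESeq2 called 4, 1 and 1. Histidine ammonia-lyase, hal, averaged 581 ± 114 CPM in young livers, 912 ± 16.9 CPM in adult ones and 1016 ± 84.6 CPM in old ones. In the same order amdhd1, of the same route to glutamate, averaged 289 ± 31.0, 431 ± 14.8 and 460 ± 83.9 CPM, and in both genes every adult and old library was above the young ones. The tyrosine aminotransferase TAT averaged 466 ± 563 CPM in young livers, 536 ± 334 CPM in adult ones and 820 ± 94.5 CPM in old ones. Of 25 glutamate, proline and cationic amino acid carriers 0 passed edgeR, with medians of -0.15, -0.58 and 0.52, and DESeq2 called 3, 1 and 1. The neutral amino acid carrier SLC1A4 had 53.6, 179 and 195 CPM in young, 311, 285 and 351 CPM in adult and 39.9, 66.1 and 178 CPM in old libraries, with every adult library above all others. The carriers slc38a5b and SLC38A9 averaged 99.6 and 122 CPM in young, 178 and 220 CPM in adult and 222 and 142 CPM in old livers.

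Of 16 genes for the oxoglutarate, succinate and ubiquinone steps 0 passed edgeR, with medians of -0.42, -0.38 and 0.13 in old over young, old over adult and adult over young livers, and DESeq2 called 1, 3 and 0. The most abundant, DLST, ETFB and sdhc, averaged 139, 82.3 and 86.5 CPM in young, 173, 84.6 and 66.1 CPM in adult and 134, 91.4 and 99.1 CPM in old livers. In the amino acid starvation response 0 of 22 targets of ATF4 passed edgeR, with medians of 0.31, 0.37 and -0.05, and DESeq2 called 0, 3 and 1. NUPR1, EIF4EBP1 and CHAC1 averaged 429, 82.5 and 75.1 CPM in young, 477, 70.8 and 51.9 CPM in adult and 970, 197 and 117 CPM in old livers. Every old library of EIF4EBP1 was above all others. For NUPR1 old and young libraries overlapped, with 907 CPM in young replicate 1, and for CHAC1 old libraries overlapped with both other ages.

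Both lists of liver zones, taken from the mouse, held 0 genes past edgeR. In mouse liver OAT is perivenous and GLS2 periportal. The 6 other perivenous genes had medians of 2.00 in old over young, 0.66 in old over adult and 0.87 in adult over young livers, and the 10 periportal ones 0.75, 0.15 and 0.58. DESeq2 called 1, 0 and 0 of the perivenous and 4, 1 and 0 of the periportal genes in these comparisons. The perivenous genes LECT2, GLUL and RHBG averaged 1331, 23.5 and 2.84 CPM in young, 4294, 11.3 and 8.43 CPM in adult and 9533, 8.11 and 8.18 CPM in old livers. GLUL and RHBG overlapped between all ages, RHBG with 0.273 to 5.17 CPM in young and 1.07 to 15.8 CPM in old libraries. LECT2 had 14700, 9823 and 4074 CPM in old libraries, overlapping with the adult but not the young ones. GLUL, glutamine synthetase, had a log2 fold change of -1.53 ± 0.53 in old over young livers (edgeR adjusted p = 0.212). The periportal gene fbp1b, an enzyme of gluconeogenesis, averaged 1315 ± 436 CPM in young livers, 2570 ± 233 CPM in adult ones and 3589 ± 158 CPM in old ones.

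Genes whose level was most like that of each gene chosen by ID were found by Pearson's r of log2(CPM + 0.5) over the 9 libraries, among 4694 genes of at least 10 CPM on average. These r values are a description, since the points share libraries, ages and depth. For proline dehydrogenase 1a they were MFAP4 (ENSNFUG00015006349, r = 0.974), TCN2L (0.961), the C1q subunit B-like gene ENSNFUG00015014725 (0.957), LDHB (0.954) and another MFAP4 entry (ENSNFUG00015008015, 0.953). The 5 for glud1b were Nfu_g_1_004094, described as leukocyte elastase inhibitor-like (0.992), serping1 (0.982), PNPLA3 (0.978), ugp2a (0.978) and DBT (0.975). For OAT they were BCKDHA (0.980), ugp2a (0.967), gria1b (0.962), ARVCFA (0.956) and PGK1 (0.955). Without young replicate 1 the r values of these 15 entries lay between 0.922 and 0.984.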

How the data were processed

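Liver RNA of 9 killifish samples was sequenced, 3 at each of 3 ages. RNA was extracted with TRIzol and libraries made with the SMART-Seq mRNA Kit, per the labels. DRAGEN is named in the submitters' processing notes, with no version or role. The aligner, build and annotation are otherwise not given in the sources. The authors deposited estimated counts per gene, not scaled between libraries, and TPM, already adjusted by the authors for transcript length and depth, per the file headers. Between 93.59 and 95.73% of the estimated counts were whole, and all were rounded for testing.

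Rounded counts went into edgeR 4.0.16 under R 4.3.3 (filterByExpr, TMM factors, robust quasi-likelihood fit of 1 mean per age to all 9 libraries), with Benjamini-Hochberg adjustment over all 13971 genes tested and a threshold of 0.05. The common biological coefficient of variation was 0.614. Each SE is the log2 fold change divided by the square root of F. CPM values use TMM-scaled library sizes. TPM was used for levels and ratios between genes, and as a further scale to see whether the ranges of a gene overlapped between ages. The fits were tested on simulated counts with a smaller spread than these data, so that test does not cover how the tools differ here. DESeq2 1.42.0, limma-voom (limma 3.58.1), other scalings, filters and sample sets were alternatives.

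The members and lists were chosen with earlier results of these data known. Named genes were every member, list genes past the threshold (up to 6 a list, otherwise the 3 most abundant) and the 5 genes most like each member chosen by ID; some are not reported here. List symbols were matched in any case with an optional paralogue letter. Genes of ribosomal RNA type, the mitochondrial type included, numbered 25. A limit of 3 counts came to 0.0662 to 0.168 CPM per library, which covers counting error only. Every value column was matched to a library.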

Additional observations from a re-analysis of the deposited data

How the results depend on the processing

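The numbers of genes called depended strongly on the tool and on single libraries. In edgeR 78 genes were called in old against young, 1 in old against adult and 2 in adult against young livers. Without a filter on low counts the numbers were 131, 75 and 13, with DESeq2 1056, 1811 and 386, and with only the 2 ages compared 6, 1682 and 0. Limma-voom called 9 in adult against young livers. Leaving out 1 library at a time gave 2 to 1321, 0 to 1625 and 0 to 12, and each of the 9 libraries moved at least 1 number by over 1.5 times. The numbers were 1321, 1625 and 6 without young replicate 1 (29.6% ribosomal RNA), 44, 1 and 3 without young replicate 2, 15, 1 and 1 without young replicate 3, 36, 0 and 2 without adult replicate 1, 41, 28 and 12 without adult replicate 2, and 38, 0 and 1 without adult replicate 3. They were 34, 0 and 0 without old replicate 1, 2, 0 and 0 without old replicate 2, and 193, 269 and 0 without old replicate 3. Without both libraries over 20% ribosomal RNA, chosen after seeing the data, the numbers were 995, 984 and 0. The cause was not tested. Same-numbered libraries correlated in their deviations from the age means between -0.06 and 0.26, over 0.1 in 3 of 9 pairs. Pairs with other numbers ran from -0.25 to 0.19, and not every library correlated best with its own number. Whether libraries of the same number share a batch was not tested. The replicate block gave 45, 0 and 0 calls.

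Sign changes met only small values. With library size scaling, which moved the median of all genes from -0.07 to -0.36 in adult over young and from -0.09 to -0.36 in old over young livers, gls2b was -0.05 in adult over young, and PYCR1 -0.12 and ALDH4A1 -0.17 in old over young livers. Relative to those medians all 3 were higher. Leaving out 1 library at a time, ALDH4A1 in old over young livers ran from -0.2992 to 0.5426 (-0.1259 without young replicate 1), PYCR1 in old over young livers from -0.001 to 0.2255, and ALDH18A1 in old over adult livers from -0.2857 to 0.0291 (0.0071 without adult replicate 3 and 0.0023 without old replicate 2). Of the 5 genes most like proline dehydrogenase 1a, glud1b and OAT, 1, 3 and 0 were among the 5 by Spearman's rho, and 1, 4 and 2 without young replicate 1. By CPM in place of TPM, OAT had rank 5 in place of 3 in young livers, pycr3 and aldh18a1 exchanged the last ranks in adult livers, and in old livers ALDH18A1 had rank 5 in place of 7, before proline dehydrogenase 1a and gls2b. Of the 9 enzyme genes tested, those wholly higher or lower between ages were also counted by unscaled library size and in TPM, scales chosen after seeing the data. By unscaled library size there were 3 and 0 in old against young, 2 and 2 in old against adult and 4 and 2 in adult against young livers, and in TPM 3 and 1, 1 and 2, and 4 and 2. The shares of all genes were not counted on these scales, so nothing is read from these numbers.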
